A study of Sus scrofa with 6 samples.

Results

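Genes induced by interferon and genes that present antigen were followed in liver RNA of newborn piglets from 2 maternal diets. The set consisted of the symbols of a list of interferon-stimulated and antigen presentation genes and of any symbol starting with SLA- (swine leukocyte antigen, the pig's major histocompatibility complex). It held 46 symbols. Of these, 37 have a row among the 26733 genes of the deposited tables, and 18 of the 37 reached 1 FPKM (fragments scaled to gene length and library size) in at least 3 libraries and could be compared. ISG15, IFIT3, IFI6, OAS1, BST2, CXCL10, B2M, NLRC5 and CD74 matched no row and were not analysed here. The 4 SLA- symbols with a row, SLA-DQB1, SLA-DMA, SLA-DMB and SLA-DOA, are all of class II, so class I heavy chains were not analysed here.

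In the High-Low group the sows had eaten feed with 0.39% tryptophan in the morning and 0.13% in the afternoon. In the 2×Trp group both meals held 0.26%. The piglets of both groups were Landrace x Yorkshire crosses, each group has 3 libraries, and the series title asks which liver genes differ under negative effects of tryptophan in the diet. Whether the 3 libraries of a group are separate piglets or litters is not stated, so any p-value reflects the spread among these libraries alone, and that spread may be technical. Library totals lay between 956426 and 1230288 FPKM, and the number of reads behind them is unknown. Hepatocyte markers differed widely in level. ALB had 9391 to 19795 FPKM over the libraries and APOB 1.37 to 22.6 FPKM, while AHSG was listed at 0 in all 6.

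Type I interferons are secreted when a cell senses foreign nucleic acid. Type I interferon activates a complex that holds STAT2 and IRF9, which binds DNA and switches on genes of antiviral proteins. Type II interferon acts in part through IRF1 and raises genes of antigen presentation. Class I molecules show peptides from the cell's own proteins and need the peptide pump made of TAP1 and TAP2. Class II molecules show peptides taken up from outside and are made mainly by macrophages, dendritic cells and B cells, which are a minority in liver. In unstimulated tissue most interferon-induced genes are transcribed at a low basal rate.

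Values differed by role. Transcription factors of the pathway had the highest values of the interferon genes, with means over the 6 libraries up to 21.7 FPKM, in IRF9. The gene lengths listed were 416 for IRF9, 399 for TAPBP and 282 for SLA-DQB1, against 1527 for IFIT1 and 1256 for OAS2. A short length was listed for some low genes too, such as 488 for IFI44L. Whether the values were divided by these lengths is not stated, so the order of genes by level is uncertain. Of the 20 antiviral effectors with a row, 7 passed the level of 1 FPKM in 3 libraries, and their means ran from 1.21 to 2.77 FPKM. Class II genes stood higher, with means of 12.3 to 26.3 FPKM in the 4 that passed. The highest mean of the set was that of TAPBP, at 44.0 FPKM. The median of the 18 means was 6.08 FPKM, beside 6.85 FPKM over all 10901 genes at that level. The share of rows at that level was 48.6% in the set and 55.3% among all 11804 rows with a symbol.

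**Figure D1:**
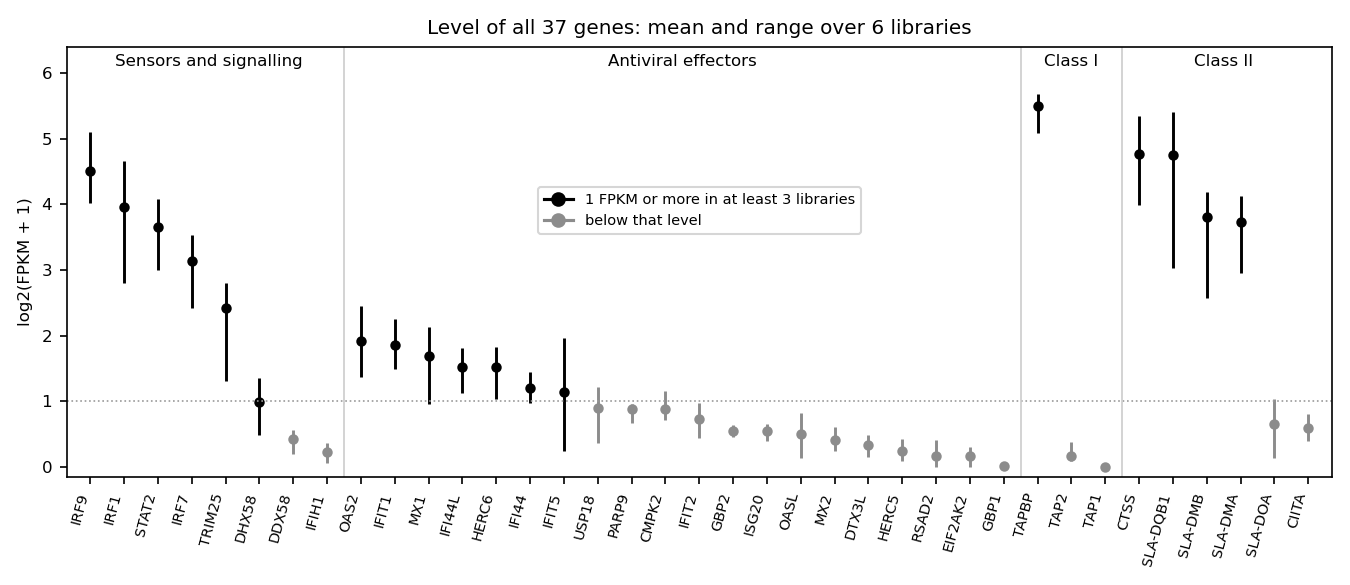
Levels of the 37 genes with a row, as log2(FPKM + 1), grouped by role. Points are means and bars the range over the 6 libraries, black for the 18 genes that reached 1 FPKM in 3 libraries and grey for the 19 below that level. Signalling factors, TAPBP and class II genes reach the upper part of the scale. Of the antiviral effectors, 7 have means above the dotted line at 1 FPKM, and the 13 in grey have means below it.

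The other 19 genes with a row stayed below that level. USP18, the protease that removes ISG15 from proteins, had the highest single value among them, at 1.34 FPKM in 2×Trp 3. Only 3 of the 19 reached 1 FPKM in any library, namely USP18, CMPK2 and SLA-DOA. The RNA sensors IFIH1 and DDX58 (RIGI in the symbol table) had 0.0367 to 0.29 and 0.142 to 0.479 FPKM over the 6 libraries. RSAD2, which encodes the antiviral enzyme viperin, was at most 0.322 FPKM and was listed at 0 in High-Low 1 and High-Low 2. EIF2AK2, the kinase that halts translation on double-stranded RNA, was at most 0.232 FPKM, and the guanylate-binding protein gene GBP1 at most 0.0342 FPKM. EIF2AK2 was listed at 0 in 1 library and GBP1 in 4, and whether such entries are failed estimates is unknown. EIF2AK2 also overlaps a gene without a symbol on the opposite strand, and how strand was handled is not stated. IFIT2, PARP9, CMPK2, GBP2, ISG20, OASL, MX2, DTX3L, HERC5 and CIITA had maxima between 0.346 FPKM, in HERC5, and 1.22 FPKM, in CMPK2. OASL, of the oligoadenylate synthetase family, had 0.0995, 0.414 and 0.209 FPKM in High-Low 1, 2 and 3, against 0.458, 0.772 and 0.496 FPKM in 2×Trp 1, 2 and 3. The OASL groups did not overlap, at values below the level set for a comparison.

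By diet, 0 of the 18 genes passed an adjusted p of 0.05 in limma, 0 had an unadjusted p under 0.05, and the adjusted p ran from 0.998 to 0.999. Over all genes tested, 1 of 10901 passed (0.00917%) and 3.16% had an unadjusted p under 0.05. Fold changes are log2 differences of FPKM + 1, High-Low minus 2×Trp. They were positive for 5 genes and negative for 13, with a median of -0.15, beside a median of -0.004 over all genes tested. The 95% interval reached a 2-fold change in at least 1 direction for 9 of the 18 genes, so a change of that size in FPKM + 1 lies within the error for them. For the other 9 the interval lay within 2-fold of FPKM + 1, which does not bound a 2-fold change of FPKM in genes near 1 to 3 FPKM, such as IFI44, DHX58 and HERC6. TRIM25 was the single gene of the 18 whose High-Low values all lay above its 2×Trp values (3.06% of all genes tested), and 0 of the 18 lay entirely below (4.12% of all genes tested).

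**Figure D2:**
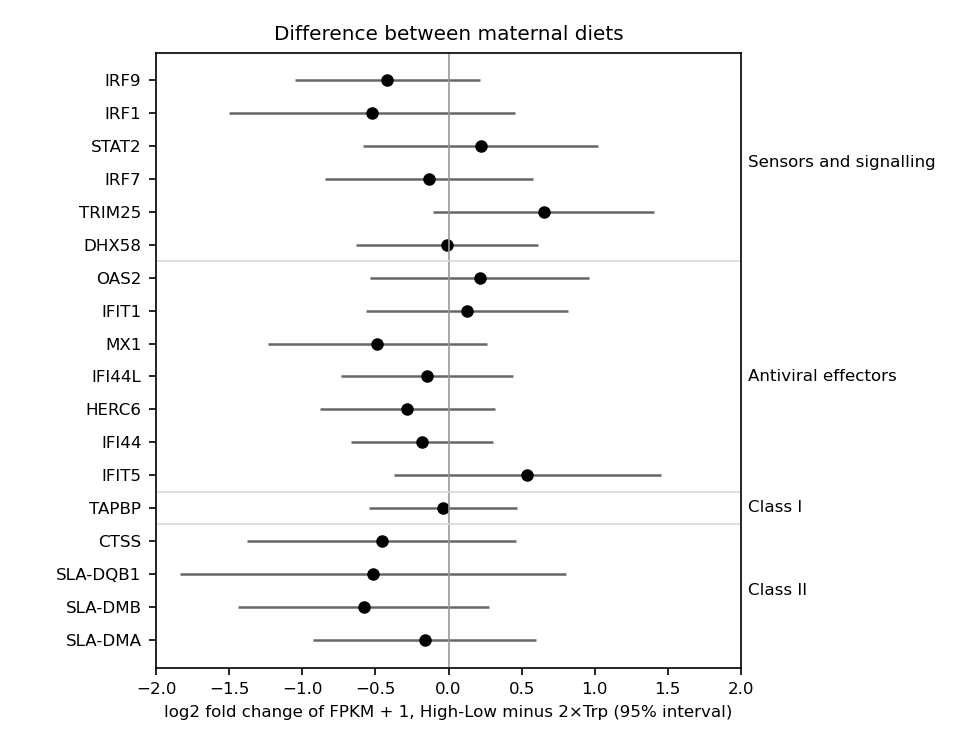
Difference between maternal diets for the 18 genes, as the log2 fold change of FPKM + 1, High-Low minus 2×Trp, with the 95% interval from limma (3 libraries per group). All intervals include 0. The highest point is TRIM25 at 0.65 and the lowest SLA-DMB at -0.58.

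Among sensors and signalling genes, 2 of 6 fold changes were positive and 4 negative, with a median of -0.07. TRIM25, the ubiquitin ligase that activates the RNA sensor RIG-I, lies on chromosome 12 from 34080929 to 34087929 in the susScr3 assembly. It had 5.09, 5.05 and 6.01 FPKM in High-Low 1, 2 and 3, against 4.37, 1.48 and 3.98 FPKM in 2×Trp 1, 2 and 3. The groups did not overlap, and 2×Trp 2 lay far below the other libraries. The fold change was 0.65 (SE 0.32, 95% interval -0.10 to 1.41), with an unadjusted p of 0.0807 and an adjusted p of 0.998 in limma. Without 2×Trp replicate 2 it was 0.30.

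IRF9, a DNA-binding part of the complex with STAT2, had 15.2, 16.7 and 22.9 FPKM in High-Low 1, 2 and 3, against 23.2, 18.6 and 33.4 FPKM in 2×Trp 1, 2 and 3. High-Low 3 lay above 2×Trp 2, so the groups overlapped. Its fold change was -0.42 (95% interval -1.05 to 0.21), and -0.20 without 2×Trp replicate 3. STAT2, its partner in that complex, had 16.0, 6.98 and 15.5 FPKM in High-Low 1, 2 and 3, against 9.72, 8.22 and 13.4 FPKM in 2×Trp 1, 2 and 3. The highest and the lowest STAT2 value were both in High-Low libraries, and the fold change was 0.22 (-0.58 to 1.02). Leaving out High-Low replicate 1 gave 0.03, while leaving out High-Low replicate 2 gave 0.58, with an unadjusted p of 0.0495 and an adjusted p of 0.384 in limma.

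IRF1, the factor through which interferon gamma acts on presentation genes, had 11.8, 5.95 and 18.7 FPKM in High-Low 1, 2 and 3. In 2×Trp 1, 2 and 3 it had 14.0, 12.5 and 24.4 FPKM. Both library 3 values were the highest of their group, and a fold change of -0.52 came with an interval from -1.50 to 0.45. Array quality weights gave -0.10, leaving out High-Low replicate 2 gave -0.13, while leaving out High-Low replicate 3 gave -0.88. IRF7, which amplifies the type I response, had 4.36, 10.5 and 7.98 FPKM in High-Low 1, 2 and 3, against 7.35, 7.62 and 9.19 FPKM in 2×Trp 1, 2 and 3. The High-Low values of IRF7 enclosed the 2×Trp values. Its fold change of -0.13 turned to 0.17 without High-Low replicate 1. IRF7 overlaps PHRF1 on the opposite strand, and no source used here states how strand was handled, so reads of the pair cannot be told apart. DHX58, which encodes the RIG-I-like protein LGP2, lay at the edge of the level needed, at 1.00 ± 0.584 FPKM in High-Low and 0.958 ± 0.131 FPKM in 2×Trp (SD, n = 3 each). Its fold change of -0.01 changed sign with the scaling.

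Among antiviral effectors, 3 of 7 fold changes were positive and 4 negative, with a median of -0.15, and all 7 genes had overlapping groups. MX1, a GTPase that traps incoming viral particles and a usual marker of interferon exposure, lies on chromosome 13 from 214988891 to 215011264. It had 0.940, 1.31 and 2.94 FPKM in High-Low 1, 2 and 3, against 2.89, 1.86 and 3.38 FPKM in 2×Trp 1, 2 and 3. High-Low 3 was in the range of the 2×Trp libraries, and High-Low 1 and High-Low 2 were below it. The fold change was -0.49 (SE 0.32, 95% interval -1.24 to 0.26), with an adjusted p of 0.998 in limma. Without High-Low replicate 3 it was -0.79, with an unadjusted p of 0.0319. Without High-Low replicate 1 it was -0.28, and with array quality weights -0.12.

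OAS2, an enzyme that makes the signal activating the ribonuclease RNase L, had 1.59, 3.27 and 4.45 FPKM in High-Low 1, 2 and 3, against 3.21, 1.87 and 2.21 FPKM in 2×Trp 1, 2 and 3. Its lowest and highest values were both in High-Low libraries. The fold change was 0.21 (95% interval -0.54 to 0.96), and -0.03 without High-Low replicate 3. HERC6, of a family of ubiquitin and ISG15 ligases, lies on the unplaced scaffold GL892728.1. It had 1.27, 1.05 and 2.54 FPKM in High-Low 1, 2 and 3, against 1.95, 2.29 and 2.04 FPKM in 2×Trp 1, 2 and 3. The High-Low values enclosed the 2×Trp values here too, with a fold change of -0.28 (-0.88 to 0.32). Without High-Low replicate 3 it was -0.52, without High-Low replicate 2 it was -0.13, and with array quality weights it was 0.0666.

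IFIT1 and IFIT5, neighbours on chromosome 14 whose proteins bind the ends of foreign RNA, had another order of libraries than MX1. IFIT1 had 3.79, 1.88 and 2.63 FPKM in High-Low 1, 2 and 3, against 1.92, 1.82 and 3.66 FPKM in 2×Trp 1, 2 and 3. IFIT5 had 2.89, 0.546 and 1.55 FPKM in High-Low 1, 2 and 3, against 0.181, 1.10 and 1.01 FPKM in 2×Trp 1, 2 and 3. High-Low 1, the lowest library for MX1, was the highest for both. The IFIT5 fold change was 0.54 (95% interval -0.38 to 1.45). Without High-Low replicate 1 it was 0.22, without 2×Trp replicate 1 it was 0.27, and without High-Low replicate 2 it was 0.88 with an unadjusted p of 0.0446. The IFIT1 fold change of 0.13 turned to -0.06 without High-Low replicate 1. IFI44 and IFI44L, adjacent genes on chromosome 6, had fold changes of -0.18 and -0.15 and means of 1.15 ± 0.223 and 1.69 ± 0.306 FPKM in High-Low, against 1.44 ± 0.313 and 2.03 ± 0.739 FPKM in 2×Trp (SD, n = 3 each). The IFI44L value was -0.37 without 2×Trp replicate 1 and -0.02 without 2×Trp replicate 3. IFIT, MX, OAS and GBP genes are families of similar sequence, and no source used here states how reads shared between copies were treated, so their values are uncertain.

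**Figure D3:**
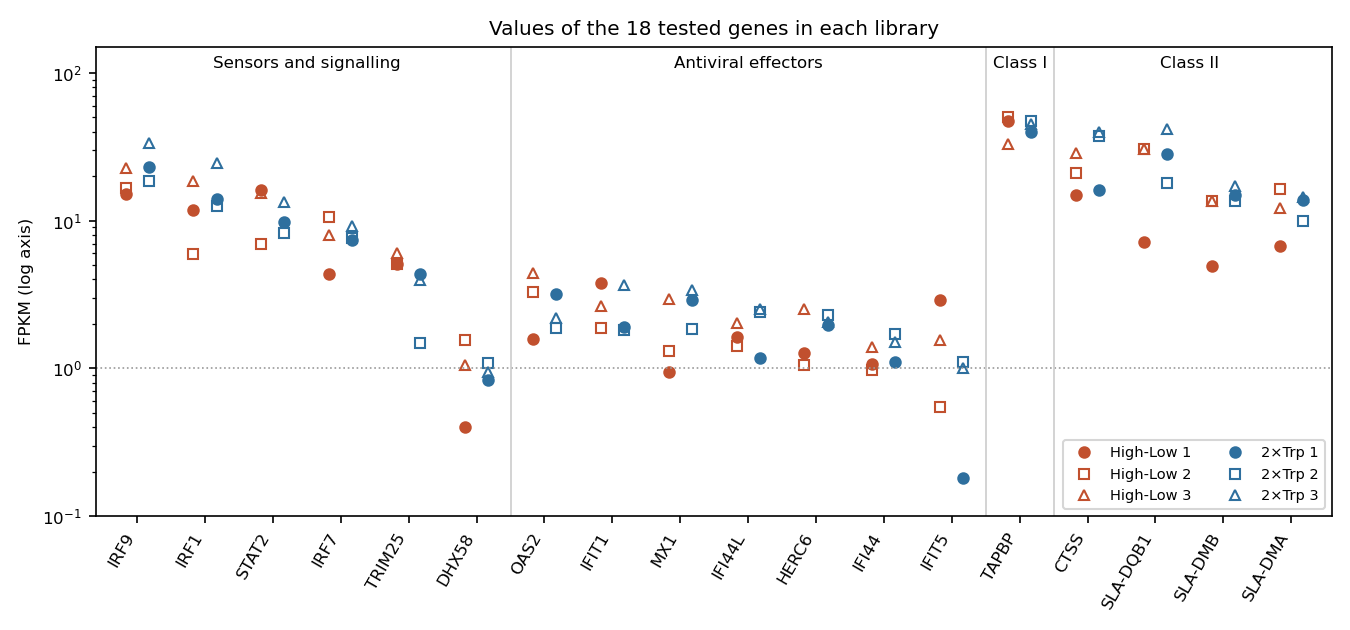
FPKM (log axis) of the 18 genes in each library, High-Low in orange and 2×Trp in blue, with a marker shape for each replicate number and a dotted line at 1 FPKM. The groups overlap in every gene except TRIM25. High-Low 1 (filled orange) is the lowest library in all 4 class II genes.

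For class I presentation, TAPBP could be compared. It encodes tapasin, which holds class I molecules at the peptide pump while they load, and lies on chromosome 7 from 34167701 to 34176411. TAPBP had 47.6, 50.5 and 33.2 FPKM in High-Low 1, 2 and 3, against 40.0, 47.7 and 45.3 FPKM in 2×Trp 1, 2 and 3. It was the steadiest of the 18 genes, its highest library standing 1.52-fold above its lowest. Its fold change was -0.04 (SE 0.22, 95% interval -0.54 to 0.47), and the sign changed with the scaling (0.02 after scaling to nuclear genes). TAP1 was listed at 0 in all 6 libraries, and TAP2 had 0.0896, 0.296 and 0.0946 FPKM in High-Low 1, 2 and 3, against 0.119, 0.0633 and 0.0900 FPKM in 2×Trp 1, 2 and 3. AHSG, which encodes the abundant plasma protein fetuin-A of fetal and newborn liver, was listed at 0 in all 6 libraries as well. An entry of 0 may therefore be a failed estimate, and nothing on TAP1 is read from it. TAP2 lies close to TAP1 on chromosome 7, as do PSMB8, listed at 0 in all 6 libraries, and PSMB9, at most 0.443 FPKM. Whether this stretch was measured properly is unknown, so no low expression is read from the TAP2 values either.

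For class II presentation, 0 of 4 fold changes were positive and 4 negative, with a median of -0.49, and all 4 genes had overlapping groups. All 4 were lowest in High-Low 1. Leaving out High-Low replicate 1 gave a median of -0.01, and leaving out any other single library gave -0.74 to -0.23. SLA-DQB1, the beta chain of a class II molecule, lies on chromosome 7 from 29180891 to 29188688. It had 7.17, 30.4 and 30.4 FPKM in High-Low 1, 2 and 3, against 28.1, 18.1 and 41.6 FPKM in 2×Trp 1, 2 and 3. High-Low 2 and High-Low 3 stood inside the 2×Trp range and High-Low 1 far below it. The fold change was -0.52 (SE 0.56, 95% interval -1.83 to 0.80), and limma's adjusted p was 0.998. The fold change was 0.13 without High-Low replicate 1. SLA-DQB1 belongs to a family of similar and highly variable sequences, so its value also depends on how well reads of each animal match the assembly.

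SLA-DMA and SLA-DMB encode the pair of chains that exchange peptides on class II molecules, and lie next to each other on chromosome 7, from 29500107 to 29504539 and from 29485890 to 29491702. SLA-DMB had 4.93, 13.6 and 13.5 FPKM in High-Low 1, 2 and 3, against 15.0, 13.5 and 17.2 FPKM in 2×Trp 1, 2 and 3. SLA-DMA had 6.75, 16.5 and 12.2 FPKM in High-Low 1, 2 and 3, against 13.9, 9.93 and 14.4 FPKM in 2×Trp 1, 2 and 3. High-Low 1 stood apart in both genes, below every other library. The SLA-DMB fold change was -0.58 (95% interval -1.44 to 0.28), and -0.15 without High-Low replicate 1. The SLA-DMA fold change was -0.16 (-0.93 to 0.60), and 0.16 without that library.

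CTSS encodes cathepsin S, the protease that trims the invariant chain from class II molecules. It had 14.8, 21.2 and 28.5 FPKM in High-Low 1, 2 and 3, against 16.0, 37.6 and 39.8 FPKM in 2×Trp 1, 2 and 3. Here 2×Trp 1 was nearly as low as High-Low 1, unlike in the SLA genes. The fold change was -0.46 (95% interval -1.38 to 0.46), with -0.23 without High-Low replicate 1 and -0.86 without 2×Trp replicate 1 (unadjusted p = 0.0295, adjusted p over all alternatives from 0.657 to 1 in limma). SLA-DOA, whose product restrains the SLA-DM pair, went another way at a low level, with 0.0946, 1.06 and 0.964 FPKM in High-Low 1, 2 and 3, against 0.375, 0.445 and 0.506 FPKM in 2×Trp 1, 2 and 3. High-Low 1 was again the lowest library. CIITA, the master regulator of class II transcription, had 0.312 to 0.747 FPKM over the 6 libraries.

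Summed markers of macrophages, B cells and T and NK cells were lowest in High-Low 1 as well, those of dendritic cells in High-Low 2 and those of plasmacytoid dendritic cells in 2×Trp 1. On the log2(FPKM + 1) scale, the class II genes stood at -1.03, 0.19 and 0.19 in High-Low 1, 2 and 3 relative to the mean of all libraries, and at 0.05, 0.04 and 0.56 in 2×Trp 1, 2 and 3. The 7 tested macrophage markers stood at -0.49, -0.12 and -0.01 in the High-Low libraries and at -0.08, 0.32 and 0.39 in the 2×Trp libraries. Their median fold change was -0.58, with 6 of the 7 negative and MARCO positive. In limma 4 of the 7 had an unadjusted p under 0.05, beside 3.16% of all genes tested, and 0 an adjusted p under 0.05. MARCO, with a fold change of 0.50, had 14.3, 19.7 and 9.50 FPKM in High-Low 1, 2 and 3. In 2×Trp 1, 2 and 3 it had 6.12, 11.8 and 11.8 FPKM. MRC1 had overlapping groups and a fold change of -0.29. For 2 of the 7, CSF1R and TIMD4, all High-Low values lay below the 2×Trp values (4.12% of all genes tested), and the other 5 had overlapping groups. An unadjusted p under 0.05 was also found for 1 of 5 tested T and NK cell markers, 1 of 11 endothelial, 2 of 5 erythroid, 0 of 6 neutrophil, 0 of 11 hepatocyte, 0 of 1 B cell and 0 of 1 dendritic cell markers, again with 0 at an adjusted p under 0.05. Fold changes were negative for 11 of 11 endothelial and 5 of 5 erythroid markers and positive for 6 of 6 neutrophil markers. In total FPKM, the 8 macrophage markers with a row, of 15 listed, summed to 261 to 456 in High-Low and 428 to 592 in 2×Trp. All 8 reached 1 FPKM in some library. Most of that sum is C1QA, with 190, 363 and 247 FPKM in High-Low 1, 2 and 3, against 335, 469 and 450 FPKM in 2×Trp 1, 2 and 3. MARCO and LYZ were lowest in 2×Trp 1 and MRC1 in High-Low 2, not in High-Low 1. Of 15 T and NK cell markers listed, 10 had a row and 8 reached 1 FPKM. The 10 summed to 12.4 to 18.7 FPKM in High-Low and 20.5 to 29.9 FPKM in 2×Trp. The largest part of that sum in every library is NKG7, with 6.14 to 7.51 FPKM in High-Low and 9.47 to 14.2 FPKM in 2×Trp. NKG7 was the 1 of 5 tested whose High-Low values all lay below its 2×Trp values (4.12% of all genes tested). The other 4 had overlapping groups. B cell markers, with 5 of 8 listed having a row, summed to 0.687 to 3.31 FPKM in High-Low and 1.2 to 2.90 FPKM in 2×Trp, and 1 of the 5, CD79B, reached 1 FPKM. Dendritic cell markers, with 5 of 9 listed having a row, summed to 0.570 to 2.11 FPKM in High-Low and 1.31 to 8.36 FPKM in 2×Trp, with BATF3 at 0 in all 6. The top of the 2×Trp range rests on CD207, at 6.38 FPKM in 2×Trp 3, and listed at 0 or, in High-Low 1, at 0.0629 FPKM in the other libraries. Plasmacytoid dendritic cell markers, with 2 of 6 listed having a row, summed to 0.568 to 1.13 FPKM in High-Low and 0.531 to 1.19 FPKM in 2×Trp. The part of these cells in the class II values was not tested, and in bulk tissue fewer cells of a type and less RNA per cell cannot be told apart.

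High-Low 1 also stood low for endothelial markers, at -0.42 on the same log2 scale, and for erythroid markers, at -1.31. Its hepatocyte markers stood at 0.39, a mean that leans on APOB, which had 22.6, 1.37 and 3.82 FPKM in High-Low 1, 2 and 3, against 2.08, 3.33 and 2.2 FPKM in 2×Trp 1, 2 and 3. APOA1 and APOA2 were lowest in High-Low 1, and the High-Low values of APOA1 all lay below its 2×Trp values (4.12% of all genes tested). The 11 endothelial markers with a row, of 14 listed, all reached 1 FPKM and summed to 112 to 205 FPKM in High-Low and 181 to 222 FPKM in 2×Trp. For 3 of the 11, PECAM1, ROBO4 and ESAM, all High-Low values lay below the 2×Trp values (4.12% of all genes tested), and the other 8 had overlapping groups. The erythroid markers, 8 of 10 listed and all reaching 1 FPKM, summed to 1817 to 7200 FPKM in High-Low and 6172 to 15894 FPKM in 2×Trp. Nearly all of that sum is the globin gene HBB, with 1793, 7122 and 4303 FPKM in High-Low 1, 2 and 3, against 15745, 6094 and 15187 FPKM in 2×Trp 1, 2 and 3. HBB, HBM, SLC4A1 and TRIM10 had overlapping groups, with fold changes of -1.58, -1.01, -0.27 and -0.24. ALAS2, at -1.35, was the tested erythroid marker whose High-Low values all lay below its 2×Trp values (4.12% of all genes tested). Neutrophil markers, 7 of 10 listed and 6 reaching 1 FPKM, summed to 33.7 to 125 FPKM in High-Low, the top in High-Low 2, and to 30.5 to 42.2 FPKM in 2×Trp. LTF was the 1 of 6 tested whose High-Low values all lay above its 2×Trp values (3.06% of all genes tested). Hepatocyte markers, 12 of 15 listed and 11 reaching 1 FPKM, summed to 51901 to 80889 FPKM in High-Low, with 64347 FPKM in High-Low 1, and to 58679 to 76003 FPKM in 2×Trp. Their part in the values was not tested.

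**Figure D4:**
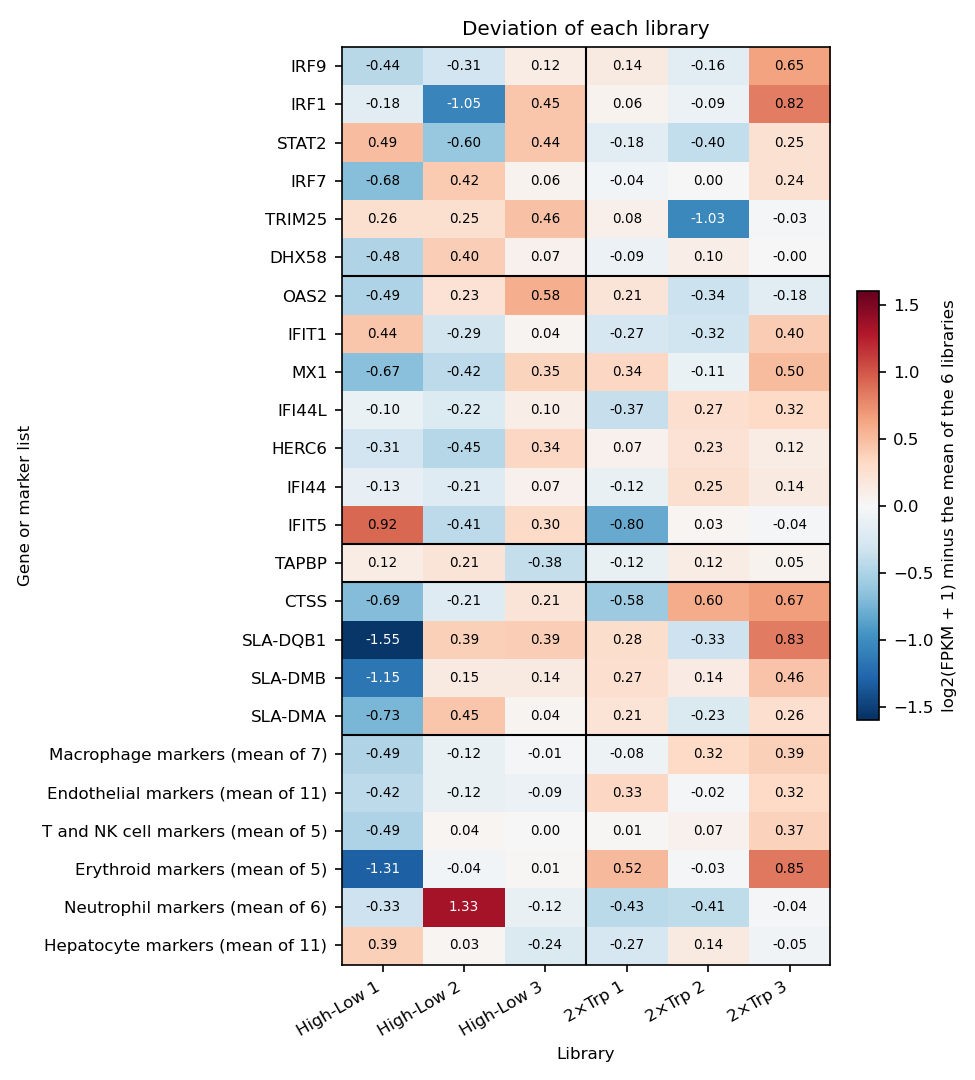
Each library's log2(FPKM + 1) minus the mean of the 6 libraries, for the 18 genes and, in the lowest block, for the mean of 6 lists of cell type markers. High-Low libraries are the left 3 columns and 2×Trp libraries the right 3. The class II block is darkest blue in High-Low 1, where the macrophage, endothelial, T and NK cell and erythroid markers are lowest too, while the 13 interferon genes are on average highest in High-Low 3 and 2×Trp 3.

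Interferon genes did not share this order of libraries. The 13 signalling and effector genes stood at -0.11, -0.21 and 0.26 in High-Low 1, 2 and 3, and at -0.08, -0.12 and 0.25 in 2×Trp 1, 2 and 3, with a mean of -0.02 in High-Low and 0.02 in 2×Trp. Both library 3 values were the highest of their group. High-Low 1 was the lowest library for 5 of the 13 and the highest for 3. Over all genes tested, High-Low 1 was lowest for 23.8% and highest for 23.6%. Within groups, the 18 genes varied by a median SD of 0.44 on the log2 scale, beside 0.32 over all genes tested. Their SD was larger in High-Low than in 2×Trp for 12 of the 18, beside 6659 of the 10901 genes tested.

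Other genes of the same pathways were also counted, from lists that hold no member of the set. Of 47 tested, 0 passed an adjusted p of 0.05 and 0 had an unadjusted p under 0.05 in limma. Among receptors and signalling genes, 3 of 7 tested fold changes were positive and 4 negative. JAK1, a kinase shared by the interferon receptors, had 21.1, 3.78 and 13.9 FPKM in High-Low 1, 2 and 3, against 9.83, 3.58 and 5.97 FPKM in 2×Trp 1, 2 and 3. SOCS1, the feedback inhibitor of these kinases, had 20.8, 96.0 and 17.4 FPKM in High-Low 1, 2 and 3, against 32.1, 15.1 and 32.5 FPKM in 2×Trp 1, 2 and 3. High-Low 2 was thus lowest of its group in JAK1 and far above all libraries in SOCS1. The SOCS1 fold change was 0.38 (95% interval -1.12 to 1.88), and -0.38 without High-Low replicate 2. PTPN6, a phosphatase of blood cells, had 9.81, 13.4 and 12.3 FPKM in High-Low 1, 2 and 3, against 13.6, 13.5 and 18.7 FPKM in 2×Trp 1, 2 and 3. Every High-Low value lay below every 2×Trp value (4.12% of all genes tested). The gap was small, between 13.42 FPKM in High-Low 2 and 13.46 FPKM in 2×Trp 2.

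Genes of nucleic acid sensing were positive in 2 of 8 and negative in 6. In 3 of the 8 all High-Low libraries lay below all 2×Trp libraries, where 4.12% of all genes tested did. Such genes were 1 of 7 for receptors and signalling and 1 of 12 for further interferon-induced genes. They were 0 of 10 for class I peptide supply and loading and 0 of 10 for class II peptide supply and transcription. STING1, the adaptor of cytosolic DNA sensing, had 2.65, 3.59 and 3.37 FPKM in High-Low 1, 2 and 3, against 5.04, 5.02 and 3.91 FPKM in 2×Trp 1, 2 and 3. TICAM1, the adaptor of the RNA receptor TLR3, had 40.2, 45.2 and 42.6 FPKM in High-Low 1, 2 and 3, against 56.6, 48.3 and 56.9 FPKM in 2×Trp 1, 2 and 3. The fold changes were -0.43 for STING1 (95% interval -0.92 to 0.06, unadjusted p = 0.0784 in limma) and -0.33 for TICAM1 (-0.73 to 0.07, unadjusted p = 0.0956 in limma). IRF5, a transcription factor of macrophages and B cells that was named after its values were seen, was the third, at 1.97, 5.33 and 4.24 FPKM in High-Low 1, 2 and 3, against 5.87, 6.21 and 5.38 FPKM in 2×Trp 1, 2 and 3. The IRF5 gap between the groups was small beside the distance of High-Low 1 from the others.

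Further interferon-induced genes were positive in 3 of 12 and negative in 9. IFI35 had 12.4 ± 3.91 FPKM in High-Low and 16.4 ± 1.26 FPKM in 2×Trp, with overlapping groups (SD, n = 3 each). SHISA5 had 9.35 ± 1.80 FPKM in High-Low and 11.7 ± 1.23 FPKM in 2×Trp (SD, n = 3 each). Its High-Low values all lay below its 2×Trp values (4.12% of all genes tested), by a small gap between 10.5 and 10.6 FPKM. LAP3, an aminopeptidase, had 86.0 ± 1.88 FPKM in High-Low and 91.4 ± 16.4 FPKM in 2×Trp. Genes of class I peptide supply and loading were positive in 3 of 10 and negative in 7. ERAP1, which trims peptides in the endoplasmic reticulum, had 3.51, 2.61 and 2.78 FPKM in High-Low 1, 2 and 3, all above the 1.65, 2.35 and 2.10 FPKM of 2×Trp 1, 2 and 3 (fold change 0.39, 95% interval -0.10 to 0.87). Of all genes tested, 3.06% had their High-Low values entirely above. PSME2, a subunit of the proteasome activator, had 51.6 ± 12.7 FPKM in High-Low and 62.2 ± 4.91 FPKM in 2×Trp, and the chaperone CALR had 685 ± 119 FPKM in High-Low and 755 ± 27.2 FPKM in 2×Trp. PSMB8, an immunoproteasome subunit, was listed at 0 in all 6 libraries, like TAP1. Genes of class II peptide supply and transcription were positive in 6 of 10 and negative in 4, and their mean stood at 0.11 in High-Low 1 on the log2 scale relative to all libraries, where that of the class II members stood at -1.03. RFX5, a factor of class II promoters, had 2.85 ± 0.789 FPKM in High-Low and 2.2 ± 0.111 FPKM in 2×Trp, and the lysosomal protease CTSL had 38.1 ± 8.86 FPKM in High-Low and 31.5 ± 8.92 FPKM in 2×Trp. CTSV, named so in the symbol table, was the most abundant of that list, at 1343 ± 257 FPKM in High-Low and 1423 ± 356 FPKM in 2×Trp (SD, n = 3 each).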

How the data were processed

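Per the labels' protocols, RNA of frozen liver was taken with Trizol, and a TruSeq kit was given 1 ug of total RNA. Bowtie2 (version 2.2.3), TopHat2 (version 2.0.12), HTSeq (version 0.6.1) and the susScr3 build stand in the submitters' processing notes. The annotation, the strand setting and the program that made the values are not named in these sources. The authors deposited 1 value per gene and library, normalized by them and read here as FPKM. The file header names no unit, and the values are not whole and their totals differ between libraries. Whole reads could not be recovered, so depth is unknown, no counting interval is given, and limma was used in place of the count test planned for counts.

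A table pairing Ensembl identifiers with symbols named 11804 of 25322 rows. Values were compared as log2(FPKM + 1) over the 10901 genes that reached 1 FPKM in 3 libraries, by limma (version 3.58.1, R version 4.3.3, trend and robust variance, two-sided), with Benjamini-Hochberg adjustment over all of them. On this scale the change of low genes is understated. Intervals are limma's 95% intervals. The step was tested on simulated data with independent normal noise. Changes were set there only in genes of higher level, so it says nothing on genes as low as the antiviral effectors. Figures used matplotlib 3.10.9.

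The members and lists were chosen with earlier results of these data known. Named genes are, per role, the 4 of highest mean, the 3 of smallest p and any called, and in the other pathway lists the 2 of smallest p and the 1 of highest mean. IFI44 and DHX58 are added so that all 18 tested genes are given. Alternatives were other scalings and filters, a pseudocount of 0.1, other variance settings, array weights, a replicate block and leaving out each library. Promoter motifs were not analysed here.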

Additional observations from a re-analysis of the deposited data

How the results depend on the processing

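Of the 18 genes, 0 were called under any of the 16 other settings, with a smallest adjusted p of 0.275 in limma, and 10 of the 18 kept the sign of their fold change in all that included them. edgeR and DESeq2 were not run, since whole reads could not be recovered, and depth is unknown. Genes called lower over the whole table numbered 0 in the reported comparison and 1 after dividing by total FPKM or by nuclear FPKM, with quantile normalization and with array quality weights, and genes called higher numbered 1 to 2 when single libraries were left out. The median of the class I genes (TAPBP alone) was -0.32 with array quality weights, which gave High-Low 3 a weight of 4.28 and High-Low 2 a weight of 0.279, and that of the class II genes was -0.74 to -0.01 when single libraries were left out. Signs that turned, with causes that were not tested, were TAPBP (0.025 with nuclear scaling, 0.00205 with quantile normalization), LAP3 (0.016 with quantile normalization), HERC6 (0.0666) and SOCS1 (-0.40) with array weights, and DHX58 (0.00315 with total scaling, 0.0232 with nuclear scaling, 0.00328 with array weights).

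When single libraries were left out, fold changes ran from -0.38 to 0.17 for IRF7, -0.0252 to 0.51 for OAS2, -0.0608 to 0.36 for IFIT1, -0.15 to 0.15 for TAPBP, -0.84 to 0.13 for SLA-DQB1, -0.43 to 0.16 for SLA-DMA, -0.21 to 0.23 for DHX58, -0.60 to -0.20 for IRF9, -0.88 to -0.13 for IRF1, 0.03 to 0.58 for STAT2, 0.30 to 0.86 for TRIM25, -0.79 to -0.28 for MX1, -0.52 to -0.13 for HERC6, -0.29 to -0.10 for IFI44, -0.37 to -0.02 for IFI44L, 0.22 to 0.88 for IFIT5, -0.80 to -0.15 for SLA-DMB, -0.86 to -0.23 for CTSS, -0.38 to 0.82 for SOCS1, -0.21 to 0.0506 for LAP3 and -0.26 to 0.10 for CTSV. Array quality weights also gave -0.08 for IFI44, 0.0348 for IFIT1, 0.56 for OAS2, 0.43 for STAT2, -0.25 for SLA-DQB1, -0.36 for SLA-DMB and -0.30 for CTSS. A pseudocount of 0.1 gave -0.45 for HERC6, -0.30 for IFI44, -0.73 for MX1 and 1.03 for IFIT5. With a replicate block 0 members were called, with 1 gene higher and 0 lower. Whether the numbers pair the samples is not stated. Same-numbered libraries had correlations of deviations from the group mean of -0.216, -0.0113 and 0.0323, and differently numbered ones of -0.133 to 0.119. Deviations within a group of 3 are tied to each other, so these values cannot decide it.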
